A study of Mus musculus with 4 samples.

Results

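The genes of the SAGA deubiquitinase module and the relatives of its enzyme were examined after depletion of Usp22 in mouse embryonic stem cells. They are Usp22, its paralogs Usp27x and Usp51, the ataxin-7 family genes Atxn7, Atxn7l1, Atxn7l2 and Atxn7l3, and Eny2. They were found by symbol in the platform annotation, counting only probe sets with a single symbol and keeping the brightest probe set of a gene. All 8 of the 8 genes were measured, among 19938 genes in all. The groups were 2 arrays of E14 cells carrying a lentiviral shRNA against Usp22 (Usp22 depleted) and 2 arrays of E14 cells carrying a lentiviral shRNA against Luc (control). E14 is an established mouse embryonic stem cell line, and the labels describe the control shRNA only by that target. All 4 samples were kept feeder-free on gelatin with 20% FBS, LIF, 1 µM PD0325901 (a MEK inhibitor) and 3 µM CH99021 (a GSK3 inhibitor), the last pair being known as 2i. The labels name neither the shRNA sequence nor the time after infection, and they do not say whether replicates were separate infections, so the p-values below rest on array-to-array spread that may be technical.

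SAGA is a large transcriptional coactivator complex with an acetyltransferase module and a deubiquitinase module. In the deubiquitinase module Usp22 is the catalytic subunit and removes ubiquitin from histone H2B and H2A, but it is active only when bound to Atxn7l3 and Eny2, and Atxn7 or one of its paralogs ties the module to the rest of SAGA. In human cells, USP27X and USP51 can also pair with ATXN7L3 and ENY2, outside SAGA, and thereby compete with USP22 for these adaptors.

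The 10 embryonic stem cell marker genes, among them Pou5f1, Nanog and Zfp42, all lay above the background level of the arrays, which was set at a log2 signal of 6.99 (the 95th percentile of 1194 olfactory and vomeronasal receptor genes). Their summed linear signal was 13482 and 14039 on the depleted arrays and 14632 and 14825 on the control arrays. By limma 0 of the 10 were called higher and 0 lower, where 2.62% of all genes were higher and 0.105% lower. At an unadjusted p under 0.05, 1 was higher and 1 lower, against 15.4% and 6.63% of all genes. With the variance following intensity, Nanog (log2 fold change −0.42) and Tfcp2l1 (−0.58) were called lower and Sox2 (0.59) higher (limma adjusted p = 0.000102, 0.00767 and 0.0175). Of all genes, 1.43% were lower and 1.64% higher with that variance. Of the primitive endoderm markers 3 of 6 lay above that level, and Gata6, Sox7 and Foxa2 did not. Of the fibroblast markers 4 of 7 did, and Postn, Dcn and Lum did not. Among all 19938 genes, 9736 lay above that level. The fibroblast list held changes both ways, with Col1a1 and Col1a2 at −0.60 and −0.55 and Thy1, its brightest gene, at 0.44. None of them was called (limma adjusted p = 0.177, 0.212 and 0.288). The summed linear signal of the primitive endoderm list was 622 to 634 on the depleted arrays and 701 to 901 on the control arrays, and that of the fibroblast list was 949 to 984 on the depleted arrays and 974 to 1257 on the control arrays, with control replicate 2 highest for both lists. Control replicate 2 also stood apart over all genes, at 55.5 on a first principal component that held 75.1% of the variance, against −37.0 and −21.9 for the depleted arrays and 3.30 for control replicate 1. Its part in the changes below was measured by leaving it out, and the part of the marker lists was not tested. Fewer cells expressing a gene and less RNA per cell cannot be told apart on these bulk arrays.

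The targeted gene was lower on both depleted arrays. Usp22 (probe set 10386636) had deposited intensities of 305 and 319 in depleted cells, against 693 and 612 in control cells. On the normalized log2 scale, the depleted arrays read 8.23 and 8.29 and the control arrays 9.41 and 9.36. The arrays of one group lay within 0.062 of each other, while the nearest arrays of different groups were 1.06 apart. Usp22 was thus the gene with the widest gap between groups among the 8, and the group averages were 8.26 ± 0.044 in depleted cells and 9.38 ± 0.039 in control cells (SD, n = 2 each). The log2 fold change, depleted over control, was −1.12 (standard error 0.27, 95% confidence interval −1.65 to −0.59, limma adjusted p = 0.00826), a 2.17-fold fall. Over all genes, 0.105% were called lower and 2.62% higher by the same rule, an adjusted p under 0.05. Ordered from the lowest change, Usp22 had rank 4 of 19938. Its change was −1.15 without control replicate 2 (limma adjusted p = 0.00919) and −1.09 without control replicate 1. Leaving out depleted replicate 1 gave −1.09, and leaving out depleted replicate 2 gave −1.15. Without depleted replicate 1 or 2 the call was lost (limma adjusted p = 0.830 and 0.360), although the change moved little. With a single depleted array left, the common standard error of the fit was 0.40.

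**Figure D1:**
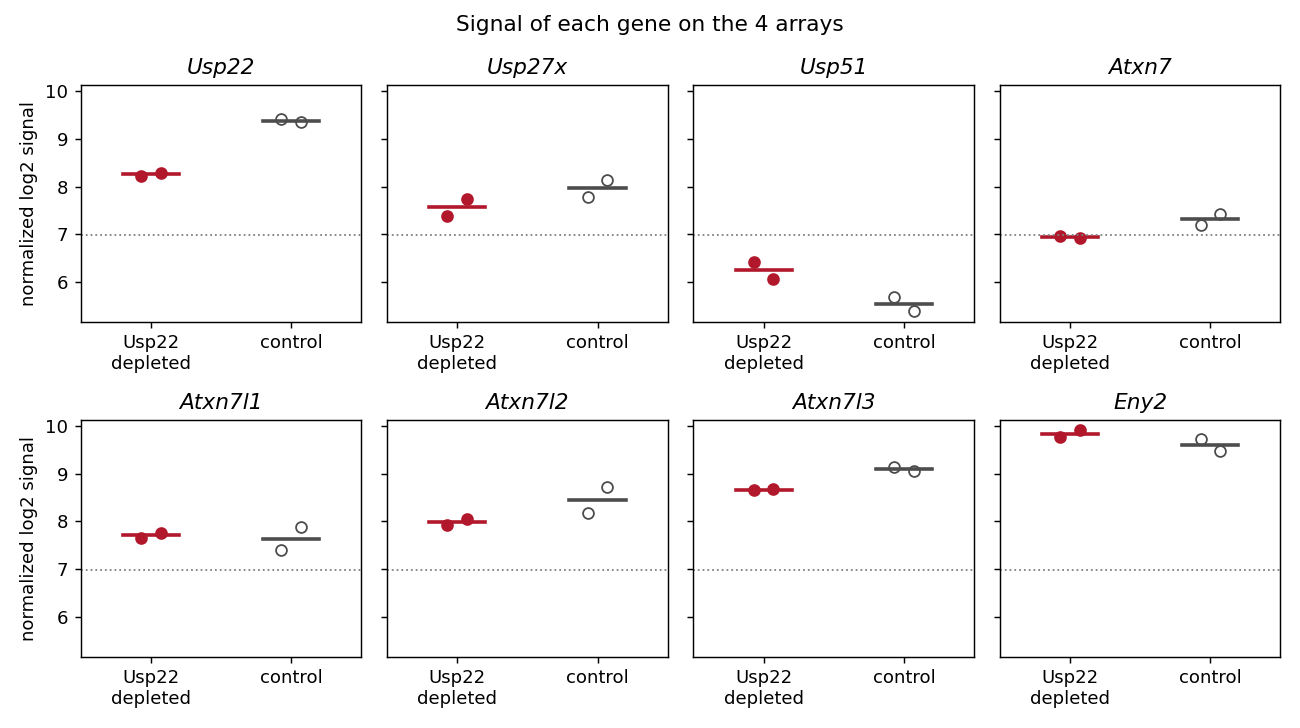
Normalized log2 signal (vertical axis) of each of the 8 genes on the 2 Usp22 depleted arrays (filled red) and the 2 control arrays (open grey), with bars at the group means and a dotted line at the array background of 6.99. Usp22 shows the widest separation of the groups, Usp51 lies under the background on every array, and the Atxn7l1 groups overlap. Heights of different genes are not comparable, since they come from different probes.

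No paralog of the enzyme passed the test. Usp51 (probe set 10602688) read 6.43 and 6.07 on the depleted arrays, against 5.69 and 5.40 on the control arrays. Both depleted values were higher than both control values, but all 4 were under the background level. The deposited intensities were 77.6 and 65.3 in depleted cells and 53.4 and 45.2 in control cells. The log2 fold change was 0.70 (standard error 0.27, 95% confidence interval 0.18 to 1.23, limma adjusted p = 0.113), with group averages of 6.25 ± 0.25 in depleted cells and 5.54 ± 0.20 in control cells (SD, n = 2 each). When the variance was allowed to follow intensity, the standard error of Usp51 became 0.34 and that of Usp22 0.20 (limma adjusted p = 0.177 and 2.26e-05). In that fit 1.43% of all genes were called lower and 1.64% higher, and Usp22 was again the 1 called gene of the 8. The change of Usp51 was 0.38 after 50 was added to every intensity before taking logs, a step that damps dim probes. Dropping control replicate 2 moved the Usp51 change to 0.56, and dropping control replicate 1 moved it to 0.85. Each of those fits left a single control array, so no call is drawn from them. Usp51 passed in no alternative that kept all the arrays and in which it was tested.

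Usp27x (probe set 10603312), the other paralog gene, pointed the other way by its group means. It read 7.39 and 7.75 on the depleted arrays and 7.79 and 8.15 on the control arrays. The groups did not overlap, but the nearest arrays of different groups were only 0.038 apart, while the depleted arrays differed by 0.36 and the control arrays by 0.36. The log2 fold change was −0.40 (95% confidence interval −0.93 to 0.12, limma adjusted p = 0.323). It stood at −0.22 without control replicate 2 and at −0.58 without control replicate 1. The sequences of the probes were not used here, so cross-hybridisation between Usp22 and its paralogs was not tested.

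The essential adaptors did not change past the threshold. Atxn7l3 (probe set 10391612), which activates the enzyme, read 8.66 and 8.68 on the depleted arrays and 9.14 and 9.06 on the control arrays. Its arrays agreed closely within each group, the groups were 0.38 apart at their nearest, and all depleted values were the lower ones. The group averages were 8.67 ± 0.012 in depleted cells and 9.10 ± 0.063 in control cells (SD, n = 2 each), for a log2 fold change of −0.43 (standard error 0.27, 95% confidence interval −0.96 to 0.09, limma adjusted p = 0.294). The replicate spread of Atxn7l3 was below the common standard error that the fit gives every gene. With the variance following intensity, its standard error was 0.20 and the limma adjusted p was 0.156 (unadjusted 0.0270). Without control replicate 2, Atxn7l3 stood at −0.48 (limma adjusted p = 0.292). Centring each array on its median, in place of quantile normalization, moved it to −0.21.

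Eny2 (probe set 10423963) encodes the small adaptor that SAGA shares with the mRNA export complex TREX-2. It read 9.76 and 9.90 on the depleted arrays and 9.73 and 9.48 on the control arrays. The depleted values were higher, but the nearest arrays of different groups were 0.033 apart and the control arrays themselves differed by 0.24. The log2 fold change was 0.23 (95% confidence interval −0.30 to 0.75, limma adjusted p = 0.556), and it was 0.10 without control replicate 2. With each array centred on its median it stood at 0.47 (limma adjusted p = 0.266).

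Among the ataxin-7 genes, which encode the subunits that tether the module, 0 passed the test with limma. Over all genes, 0.105% were called lower and 2.62% higher. Atxn7 (probe set 10412741), whose repeat expansion in humans causes a spinocerebellar ataxia, read 6.97 and 6.93 on the depleted arrays and 7.19 and 7.44 on the control arrays. Its depleted values were the lower ones and lay just under the background level, with a log2 fold change of −0.37 (95% confidence interval −0.89 to 0.16, limma adjusted p = 0.357) and −0.25 without control replicate 2. Atxn7l2 (probe set 10501286) read 7.92 and 8.05 on the depleted arrays and 8.17 and 8.72 on the control arrays. Its control arrays differed by 0.55, more than the change itself of −0.46 (95% confidence interval −0.98 to 0.07, limma adjusted p = 0.273). The size of that change differed with the control array kept. Without control replicate 2 it was −0.18, and without control replicate 1 it was −0.73.

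Atxn7l1 was the only one of the 8 genes whose groups overlapped. Its brighter probe set, 10395287, read 7.66 and 7.76 on the depleted arrays and 7.40 and 7.88 on the control arrays, so both depleted values lay between the control values. The log2 fold change was 0.07 (95% confidence interval −0.46 to 0.59, limma adjusted p = 0.863). A second probe set, 10395293, which was not used for the gene, read 6.59 and 6.89 on the depleted arrays and 6.90 and 7.02 on the control arrays, a difference of −0.22. The probe sets of Atxn7l1 thus pointed to opposite sides of 0, and neither passed (limma adjusted p = 0.863 and 0.564 among all named probe sets). The sign of Atxn7l1 was negative when they were averaged (−0.078) and without control replicate 1 (−0.17).

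**Figure D2:**
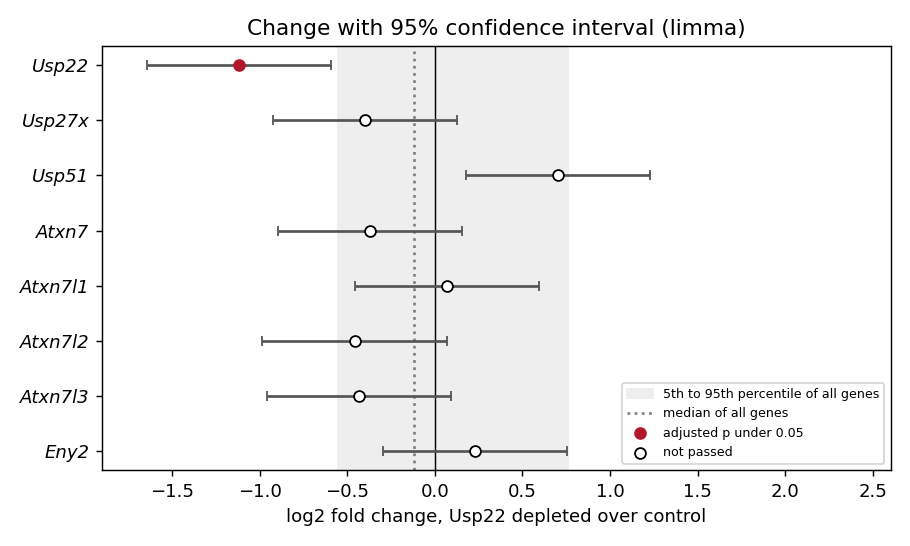
Log2 fold change, Usp22 depleted over control (horizontal axis), of the 8 genes with limma's 95% confidence interval. The filled point passed the adjusted p threshold, the grey band spans the 5th to 95th percentile of all genes (−0.55 to 0.76) and the dotted line is their median (−0.12). Only the interval of Usp22 (−1.65 to −0.59) lies wholly below 0, and only that of Usp51 (0.18 to 1.23) wholly above it.

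Taken over the 8 genes, 1 was called lower (Usp22) and 0 were called higher by limma. Of all genes, 0.105% were called lower and 2.62% higher. Usp22 was the target of the shRNA, and no other of the 8 was called. At an unadjusted p under 0.05, 1 was lower and 1 (Usp51) higher, where 6.63% of all genes were lower and 15.4% higher. Without overlap between the groups, 5 genes were lower (Usp22, Usp27x, Atxn7, Atxn7l2 and Atxn7l3) and 2 higher (Usp51 and Eny2). Over all genes, 33.3% were lower and 27.4% higher without overlap. The median log2 fold change of the 8, the target Usp22 included, was −0.38, against −0.12 for all genes. It was −0.20 against −0.05 without control replicate 2, and −0.44 against −0.15 without control replicate 1. For 3 of the 8, namely Atxn7l1, Atxn7l2 and Eny2, the control arrays lay further apart than the change. The values of Usp27x and Atxn7l2 ran over the 4 arrays in the same order as the first principal component, and those of Usp51 in the reverse order. That made 37.5% of the 8 genes, close to the 36.4% of all genes that did so in either order. Usp22 did not follow that order. With 2 arrays a group, 0.333 is the smallest two-sided p of an exact permutation test, so none was used for single genes.

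**Figure D3:**
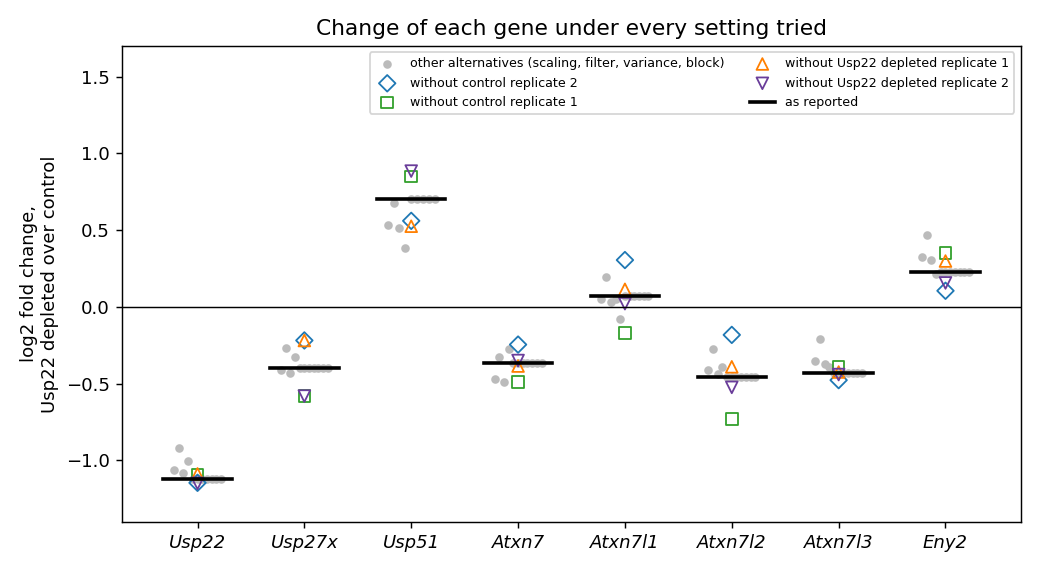
Log2 fold change, Usp22 depleted over control (vertical axis), of each gene as reported (black bar), with 1 array left out (open symbols) and under the other alternatives (grey points). Usp22 stays between −1.15 and −0.92, while Atxn7l2 runs from −0.73 to −0.18 depending on which control array is left out, and Atxn7l1 takes both signs.

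The genes whose signal followed that of Usp22 most closely were sought among 9707 named genes above the background level, by the distance between their 4 log2 values after each gene was centred on its own mean. The nearest were G530011O06Rik (distance 0.22), the imprinted retrotransposon-derived gene Rtl1 (0.25), the zinc-finger homeobox gene Zfhx2 (0.30), DQ267102 (0.31) and Mllt6, a fusion partner of MLL in human leukaemia (0.35). Their log2 fold changes were −0.95, −0.94, −0.83, −0.83 and −0.79, of which the first pair passed (limma adjusted p = 0.0289 and 0.0312). These genes were chosen for their likeness to Usp22, so a low p follows from the choice and is no separate evidence. Without control replicate 2 the changes of G530011O06Rik and Rtl1 were −0.88 and −0.89. Of the other 7 genes of the module and its paralogs, the nearest to Usp22 was Atxn7l3, at a distance of 0.69 and rank 1476 over all genes. Usp51 was the farthest, at 1.86 and rank 18427. These are distances over 4 arrays that also share the overall difference between groups.

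Genes that act beside the module were described from lists chosen by function. Of the 18 other SAGA subunit genes, 2 rose and 0 fell, where 2.62% of all genes were called higher and 0.105% lower. Their median log2 fold change was 0.03, and −0.20 without control replicate 2. Taf9b, a paralog of the SAGA and TFIID subunit gene Taf9, read 7.24 and 6.96 on the depleted arrays, against 5.57 and 5.45 on the control arrays (log2 fold change 1.59, limma adjusted p = 6.04e-05). Only depleted replicate 1 of the 4 arrays was above the background level for Taf9b, so the size of its change is uncertain, and the call was lost without depleted replicate 1 or 2 (limma adjusted p = 0.830 and 0.109). The acetyltransferase gene Kat2b read 8.07 and 7.98 on the depleted arrays and 7.43 and 6.76 on the control arrays (log2 fold change 0.93, limma adjusted p = 0.0334). Its value on control replicate 2 lay under the background level. The call of Kat2b was lost without control replicate 2 (0.59, limma adjusted p = 0.219) and without depleted replicate 1 or 2 (0.830 and 0.428). It was also lost on the deposited log2 values (limma adjusted p = 0.102), with each array centred on its 75th percentile (0.117) and with limma's robust settings (0.0519). Taf9 stood at 0.69 (limma adjusted p = 0.122), and passed with the variance following intensity (0.0316). It also passed with each array centred on its median (limma adjusted p = 0.0359), with 50 added (0.0217) and among genes above the background level (0.0455). Taf9 did not pass on the deposited log2 values (limma adjusted p = 0.139), with arrays centred on their 75th percentile (0.146) or with robust settings (0.156).

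The enzymes that place the mark were also measured. Of 10 measured genes for H2B ubiquitination, which join ubiquitin to H2B or recruit the machinery through the PAF complex, 0 rose and 0 fell with limma. Over all genes 2.62% were called higher and 0.105% lower. The median of the 10 was −0.15. At an unadjusted p under 0.05, 1 was higher and 3 were lower, where 15.4% of all genes were higher and 6.63% lower. The 3 with the lowest p were Paf1, the name-giving subunit of the PAF complex, at −0.70 (limma adjusted p = 0.113), Rnf40, which forms an E3 ligase heterodimer with Rnf20, at −0.56 (0.200), and the E2 enzyme gene Ube2b at 0.54 (0.217). Paf1 read 8.69 and 8.75 on the depleted arrays and 9.37 and 9.48 on the control arrays, and it passed with the variance following intensity (limma adjusted p = 0.0133). It also passed with 50 added (limma adjusted p = 0.0180) and among genes above the background level (0.0411). Paf1 did not pass on the deposited log2 values (limma adjusted p = 0.167), with each array centred on its median (0.248) or with robust settings (0.147). The median of that list depended on the arrays, being −0.32 without control replicate 2 and 0.04 without control replicate 1.

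Other deubiquitinases with reported activity on histones did not pass either. Of 10 measured genes, 0 were higher and 0 lower by limma (2.62% and 0.105% of all genes). At an unadjusted p under 0.05, 4 were higher and 1 lower (15.4% and 6.63% of all genes). Their median was 0.24. Usp3, a histone H2A and H2B deubiquitinase gene, read 7.89 and 7.75 on the depleted arrays and 7.16 and 6.80 on the control arrays (log2 fold change 0.84, limma adjusted p = 0.0550). It stood at 0.66 without control replicate 2. Usp44, which acts on H2B, had a change of 0.77 (limma adjusted p = 0.0836), and of 0.77 with either control array left out. Usp16, which acts on H2A, had a change of 0.71 (limma adjusted p = 0.112), and of 0.38 without control replicate 2. Usp3 and Usp44, but not Usp16, passed when the dimmest 0.25 of genes were left out (limma adjusted p = 0.0292, 0.0495 and 0.0690). Among genes whose mean over the 4 arrays lay above the background level all of them passed (limma adjusted p = 0.0151, 0.0283 and 0.0404). Usp3 and Usp44 had control averages of 6.98 and 6.63, under that level, and cleared the filter through their depleted arrays. The filter drew on the same values as the test, so passing there is no separate evidence. None of Usp3, Usp44 and Usp16 passed with the variance following intensity (limma adjusted p = 0.0705, 0.118 and 0.0871). Of the 5 partners of Eny2 in TREX-2, 0 were higher and 0 lower by limma (2.62% and 0.105% of all genes). Of the 5, 1 was higher and 0 lower at an unadjusted p under 0.05 (15.4% and 6.63% of all genes). Their median was 0.15, with the centrin genes Cetn2 at 0.53 and Cetn3 at 0.22 and the scaffold-binding subunit gene Pcid2 at −0.35 (limma adjusted p = 0.224, 0.559 and 0.374). Without control replicate 2, Cetn2 stood at 0.22 and Cetn3 at 0.11. The median of the 5 was 0.34 without control replicate 1 and 0.42 with each array centred on its median.

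**Figure D4:**
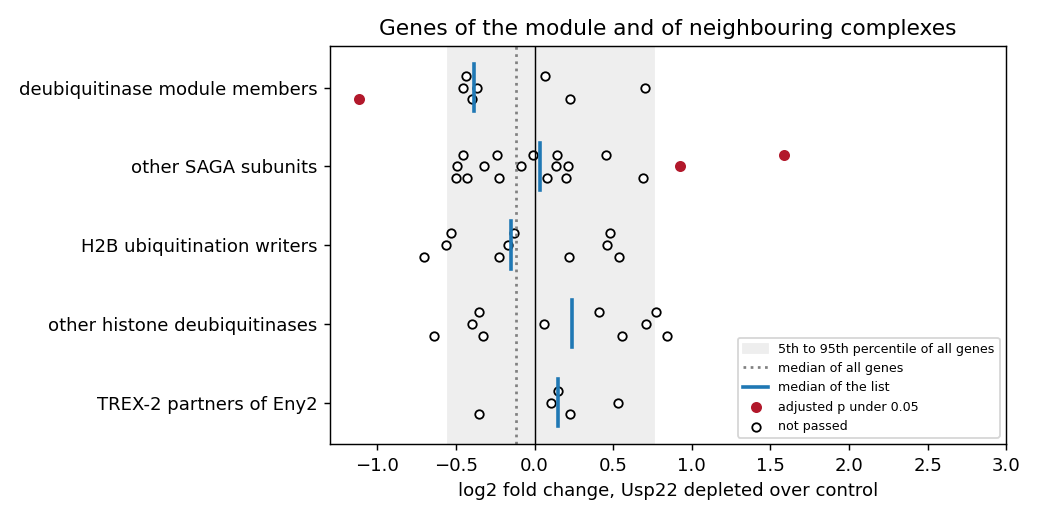
Log2 fold change, Usp22 depleted over control (horizontal axis), of every measured gene in the module and in 4 lists of genes that act beside it, with filled points for an adjusted p under 0.05, blue bars at list medians (−0.38, 0.03, −0.15, 0.24 and 0.15 from top to bottom) and a grey band for the 5th to 95th percentile of all genes. Usp22 is the called point on the left, and Taf9b and Kat2b are those on the right.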

How the data were processed

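The authors deposited 1 linear intensity per probe set and array for 28856 probe sets of a one-colour Affymetrix platform. Per the labels' protocols, RNA was extracted with Trizol and a column and hybridised as biotin-labelled cDNA. The summarisation, background correction, normalization and genome build are not given in the sources used, and no coordinates are printed. After a log2 step, the 4 arrays were quantile-normalized. GEO's platform annotation gave 1 symbol to 21789 probe sets, several to 1621 and none used here to 5446. By gene ID, 21698 matched RefSeq (GRCm38.p6). The brightest probe set was kept for each of 19938 genes, of which 999 had several.

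All genes were fitted with limma 3.58.1 in R 4.3.3 (lmFit, eBayes, 2 groups, two-sided, Benjamini-Hochberg over all genes, threshold 0.05). The fit had 2 residual and infinite prior degrees of freedom, so every gene has the same standard error, and the smallest called change was 0.86. The number of arrays limits the precision. Array medians were 110 to 128, and 0 pairs of arrays held identical values.

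The genes, the lists and the tests were chosen with earlier results of these data known. Named genes were the 8, the called genes of 4 functional lists or otherwise the 3 with the lowest p, and the 5 nearest to Usp22. The listed genes Skic8 and Usp49 were not matched. Alternatives were other scaling, an added offset, averaged probe sets, filters on dim genes, other variance models, the replicate number as a block and leaving out each array. Scanner files and scan dates were not used here.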

Additional observations from a re-analysis of the deposited data

How the results depend on the processing

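Usp22 stayed lower in all 15 alternatives, with limma adjusted p from 5.90e-06 to 0.830, and its log2 fold change was −0.92 after median centring of the arrays (limma adjusted p = 0.0314). It ran from −1.15 to −1.09 with 1 array left out, and its call was lost without depleted replicate 1 or 2. The members called lower ran from 0 to 3 and those called higher from 0 to 1 when 1 array was left out, and the other alternatives gave 1 and 0. The sign of Atxn7l1 turned with averaged probe sets (−0.078) and ran from −0.17 without control replicate 1 to 0.30 without control replicate 2, and 6 other members kept their sign wherever they were tested. Usp51 was removed by both filters on dim genes. Over all genes, 523 were higher and 21 lower by limma. The numbers were 75 and 10 on the deposited log2 values, 59 and 12 with each array centred on its 75th percentile, 1228 and 365 with 50 added, 326 and 286 with the variance following intensity, and 295 and 11 with robust settings. With each array centred on its median 927 were higher, and the genes lower were 36 without the dimmest 0.25, 149 above the background level and 339 with trend and robust settings. With 1 array left out, the genes higher ran from 0 to 4884 and the genes lower from 0 to 4236, both highest without control replicate 1. Without control replicate 2 they were 66 and 2. Without depleted replicate 1 limma called 0 and 0, and at an unadjusted p under 0.05 it gave 540 higher and 48 lower. In the labels, same-numbered arrays are tied only by that number, and whether they were made as pairs was not tested. Their deviations from the group means correlated at 0.10 over genes, and those of the crossed pairs at −0.10. With the replicate number as a block 856 genes were higher and 42 lower, with Usp22 at −1.12 (limma adjusted p = 0.00328). The causes of these shifts were not tested. The median of all genes moved from −0.12 to −0.24 on the deposited values and −0.09 with arrays centred on their median. Signals under the background level, as for Usp51, limit what can be read from a change.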

Other observations

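Atxn7l3b, a paralog of Atxn7l3 whose human protein binds ENY2, was outside the lists and was looked up after the other values were seen. It read 7.57 and 7.42 on the depleted arrays and 7.32 and 6.78 on the control arrays, a log2 fold change of 0.45 (95% confidence interval −0.08 to 0.97, limma adjusted p = 0.283). Its control arrays differed widely, and leaving out control replicate 2 gave a change of 0.17 for Atxn7l3b, and leaving out control replicate 1 gave 0.72.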
